A study of Mus musculus with 6 samples.

Results

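Cytotoxic lymphocyte effector genes were examined in whole mouse lung after naphthalene. They were chosen by name, as Gzma, Gzmb, Gzmk, Prf1, Nkg7, Ncr1, Ifng, Tbx21 and Eomes, and a gene was measured where the microarray had a probe set annotated to it and to no other gene. Of these 9 genes, 6 had such a probe set, 1 each, among 16537 genes tested in all. Gzmb, Ifng and Eomes had none under their symbol or gene number in the platform annotation used here and were not analysed. A second probe set that listed Prf1 beside another gene was left out. The study compared 3 samples labelled as null for Falcor, a long non-coding RNA gene beside the lung transcription factor gene Foxa2, with 3 wild-type samples. All 6 samples carried the strain label CD1_C57Bl6_mix, and all had been given naphthalene, which the club cells of the airway turn into a toxic metabolite. The labels placed the Falcor-null samples at 31, 32 and 33 days after naphthalene and the wild-type samples at 28, 29 and 30 days, so that the labelled day goes up by 1 with every sample. Whether these were true sampling days is not known from the sources used here, and if they were, day and genotype cannot be told apart. Neither the age of the mice, nor how the null allele was made, nor whether each sample was a separate animal is given in the sources used here, so that the p-values rest on sample-to-sample spread that could be purely technical.

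Natural killer (NK) cells and cytotoxic T cells kill infected or altered cells by releasing granules at the point of contact. Perforin opens the target membrane, granzymes enter and cleave proteins inside, and interferon gamma is secreted to activate macrophages and antigen presentation. The T-box factors T-bet (Tbx21) and Eomesodermin (Eomes) turn on much of this programme, together with Runx3. In the lung such cells lie in the vessels, the interstitium and around the airways, where they take part in defence against viruses and intracellular bacteria.

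The arrays were read first as a whole. Median log2 signals over the 24173 probe sets were 6.69 to 6.70 on the arrays labelled Falcor-null and 6.72 to 6.74 on the wild-type arrays. Arrays correlated across probe sets (Pearson, and probe sets are no independent replicates) at 0.982 to 0.986 for the 6 pairs within a group and 0.970 to 0.976 for the 9 pairs between groups. The Falcor probe set (symbol 9030622O22Rik) went against its label. It read 6.49 ± 0.28 on the arrays labelled Falcor-null and 5.05 ± 0.38 on the wild-type arrays (SD, n = 3 each), a log2 difference of 1.44 with a limma adjusted p of 0.0423. That call was lost with any array left out except wild type replicate 3, with adjusted p-values over the 6 fits of 0.0379 to 0.143. The sources used here do not place the probe set inside or outside the sequence changed in the null allele, and every direction below rests on the labels. The defining genes of lung epithelium were present in both groups: the surfactant gene Sftpc, the club cell genes Scgb1a1 and Cyp2f2, the ciliated cell regulator Foxj1, the adhesion molecule Epcam and the alveolar type 1 gene Ager differed by between -0.0025 and 0.24 on the log2 scale, and 0 of 6 passed. Sftpc read 13.6 on every array and Scgb1a1 13.5 to 13.6, close to the highest signal of any probe set (13.8 to 13.9), so that their near-zero differences show presence and say nothing of an equal level.

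The promoters of 4 measured effector genes are shown because they are places where the T-box and Runx factors could act, and because the values of Tbx21 and Runx3 are set beside those of the granule genes below. Each sequence runs 5′ to 3′ on the gene's strand from 250 bases before to 50 bases after the start of transcription (RefSeq, GRCm38.p6). Capitals mark matches, on either strand, to a T-box core (GTGTGA, or TCACAC on the other strand) or to a Runx core (TGTGGT, or ACCACA on the other strand). The windows are Gzma at chr13:113100932-113101231 on the minus strand, Gzmk at chr13:113180916-113181215 on the minus strand, Prf1 at chr10:61297586-61297885 on the plus strand and Nkg7 at chr7:43436888-43437187 on the plus strand.
Gzma: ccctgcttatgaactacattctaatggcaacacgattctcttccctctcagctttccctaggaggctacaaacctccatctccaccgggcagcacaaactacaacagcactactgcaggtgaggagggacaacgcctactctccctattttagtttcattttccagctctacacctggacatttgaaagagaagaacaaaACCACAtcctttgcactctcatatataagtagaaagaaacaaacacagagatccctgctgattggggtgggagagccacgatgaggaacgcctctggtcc
Gzmk: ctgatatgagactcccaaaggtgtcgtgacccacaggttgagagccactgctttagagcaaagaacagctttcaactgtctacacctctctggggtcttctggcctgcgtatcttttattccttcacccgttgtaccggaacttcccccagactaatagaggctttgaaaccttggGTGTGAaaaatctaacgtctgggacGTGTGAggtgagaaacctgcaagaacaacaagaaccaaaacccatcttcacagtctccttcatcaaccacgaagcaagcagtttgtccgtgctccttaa
Prf1: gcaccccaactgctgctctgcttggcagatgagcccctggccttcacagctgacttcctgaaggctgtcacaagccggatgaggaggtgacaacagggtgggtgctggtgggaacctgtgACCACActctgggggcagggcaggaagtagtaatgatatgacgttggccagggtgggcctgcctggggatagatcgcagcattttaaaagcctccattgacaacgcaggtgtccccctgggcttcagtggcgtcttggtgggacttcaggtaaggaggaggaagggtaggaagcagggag
Nkg7: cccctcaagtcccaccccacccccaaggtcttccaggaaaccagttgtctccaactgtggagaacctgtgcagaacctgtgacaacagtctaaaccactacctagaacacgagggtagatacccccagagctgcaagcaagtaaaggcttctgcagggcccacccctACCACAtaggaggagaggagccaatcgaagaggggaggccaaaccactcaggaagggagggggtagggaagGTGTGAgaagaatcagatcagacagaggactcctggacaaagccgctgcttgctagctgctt

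All 9 genes had a promoter in that table. Gzmk held 2 T-box cores, whose first bases lie at -74 and -49 from the start of transcription, and no Runx core. Nkg7 held 1 of each, the Runx core at -83 and the T-box core at -12. Gzma and Prf1 held 1 Runx core each, at -50 and -130, and no T-box core. Of the genes not shown, Gzmb had a T-box core at -15 and Runx cores at -93 and -34. Ncr1, in the first of its 2 listed windows, had a T-box core at -80 and Runx cores at -176 and -41. Neither core occurred in the windows of Ifng, Tbx21 or Eomes. In all, 4 of the 9 genes held the T-box core, against 16.4% of the 27025 genes in the table, and 5 of 9 held the Runx core, against 18.9%. No T-box match overlapped a Runx match in these windows. These are matches of letters in a short window and do not show binding.

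**Figure D1:**
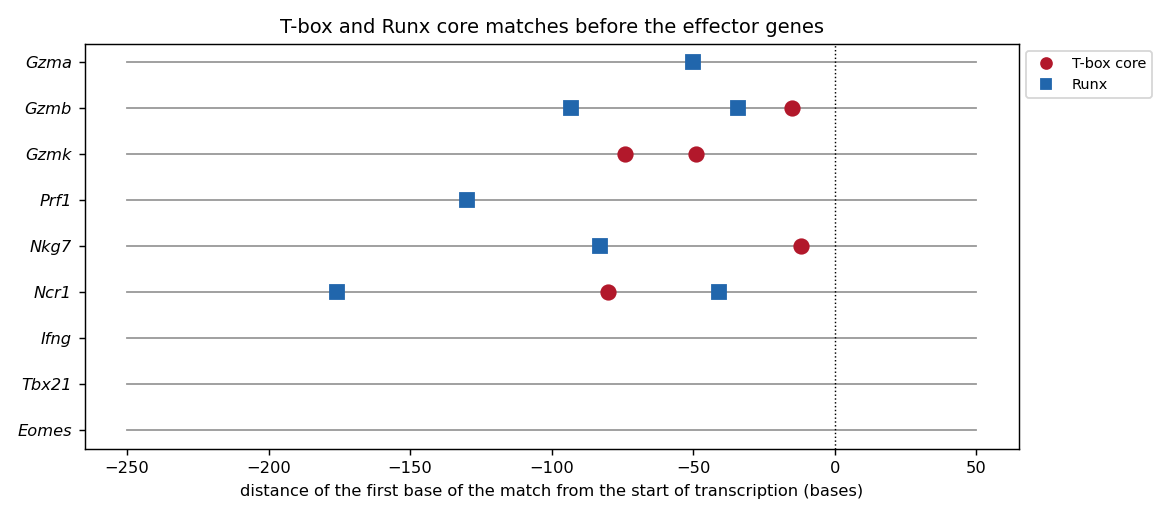
Positions of the T-box core (circles) and the Runx core (squares) before the 9 effector genes, as distance in bases of the first base of each match from the start of transcription. Grey lines are the windows searched, and for Ncr1 the first of its 2 windows is drawn. Every match lies before the start, between -176 and -12.

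None of the 6 measured effector genes passed the test on the arrays labelled Falcor-null against wild type, and 5 of the 6 had lower means there. Log2 differences ran from -0.37 for Gzma to 0.12 for Tbx21. In limma, 0 of 6 passed an adjusted p of 0.05, where 0.556% of all genes did, and 0 of 6 had an unadjusted p under 0.05, where 13.8% of all genes did. Of all genes tested, 49.2% had a difference below 0. The groups did not overlap for 1 of the 6, Gzmk, lower on the arrays labelled Falcor-null, where 10.6% of all genes were separated in that direction. With whole lung as the sample, fewer cells of a type and less RNA per cell cannot be told apart.

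Gzma encodes granzyme A, a tryptase of cytotoxic granules that triggers death and inflammation in target cells. Its log2 signal was 6.87, 7.09 and 6.70 on the arrays labelled Falcor-null, replicates 1 to 3, against 7.73, 7.13 and 6.91 on the wild-type arrays. The groups overlapped, since Falcor-null replicate 2 lay above wild type replicate 3, and the highest value was wild type replicate 1. The difference was -0.37 (SE 0.21), with a 95% interval of -0.86 to 0.12 that covers folds from 0.550 to 1.09, and an adjusted p of 0.490. Without wild type replicate 1 the difference was -0.13 (adjusted p 0.738).

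Gzmk encodes granzyme K, another tryptase, made by memory and effector T cells. In the RefSeq gene order Gzma and Gzmk are neighbours on chromosome 13 with no protein-coding gene between them. The Gzmk signal was 5.14, 5.15 and 5.07 on the arrays labelled Falcor-null and 5.48, 5.17 and 5.19 on the wild-type arrays. It was the dimmest of the 6 measured effector genes, with a mean at percentile 15.3 of all genes tested. All 3 arrays labelled Falcor-null lay below all 3 wild-type arrays, although the nearest of them were only a few hundredths apart, and wild type replicate 1 again stood highest. The difference was -0.16 (SE 0.10, 95% interval -0.40 to 0.072, adjusted p 0.532), and it was -0.064 without wild type replicate 1 (adjusted p 0.789).

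Prf1 encodes perforin, the pore-forming protein without which granzymes do not reach the inside of the target cell. It read 6.05, 6.45 and 6.30 on the arrays labelled Falcor-null and 6.44, 6.20 and 6.28 on the wild-type arrays. The arrays of both groups were interleaved, with the lowest and the highest value both labelled Falcor-null. The difference was -0.040 (SE 0.12, adjusted p 0.920), and its 95% interval of -0.32 to 0.24 covers folds from 0.803 to 1.18. The sign turned without Falcor-null replicate 1 (0.066) and without wild type replicate 1 (0.025).

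Nkg7, a membrane protein of cytotoxic granules needed for their release, had the smallest unadjusted p of the 6 genes (0.0669). Its signal was 6.69, 6.92 and 6.82 on the arrays labelled Falcor-null and 7.34, 6.88 and 7.05 on the wild-type arrays. Falcor-null replicate 2 lay above wild type replicate 2, so that the groups overlapped. The difference was -0.28 (SE 0.13), a fold of 0.824 with a 95% interval of 0.667 to 1.02, and the adjusted p was 0.404. It was -0.15 without wild type replicate 1 (adjusted p 0.605).

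Ncr1 encodes NKp46, an activating receptor found on NK cells and related innate lymphocytes, and so marks cells rather than granules. It read 5.62, 5.67 and 5.41 on the arrays labelled Falcor-null and 5.62, 5.73 and 5.81 on the wild-type arrays. This signal was dim as well, with a mean at percentile 24.1 of all genes tested. The groups overlapped, and unlike the granule genes Ncr1 was lowest, not highest, on replicate 1 of the wild type. The difference was -0.16 (SE 0.098, 95% interval -0.39 to 0.073, adjusted p 0.538), and without Falcor-null replicate 3 it was -0.077 (adjusted p 0.788).

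Tbx21, the gene of T-bet, was the only measured effector gene with a higher mean on the arrays labelled Falcor-null. Its signal was 5.99, 6.0 and 6.10 on those arrays and 6.05, 5.77 and 5.91 on the wild-type arrays. Wild type replicate 1 lay within the range of the arrays labelled Falcor-null. The difference was 0.12 (SE 0.093, 95% interval -0.097 to 0.34, adjusted p 0.622), and it was 0.051 without wild type replicate 2 (adjusted p 0.903). Its sign was opposite to that of Gzma, Gzmk and Nkg7, and a difference between the genes was not tested.

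**Figure D2:**
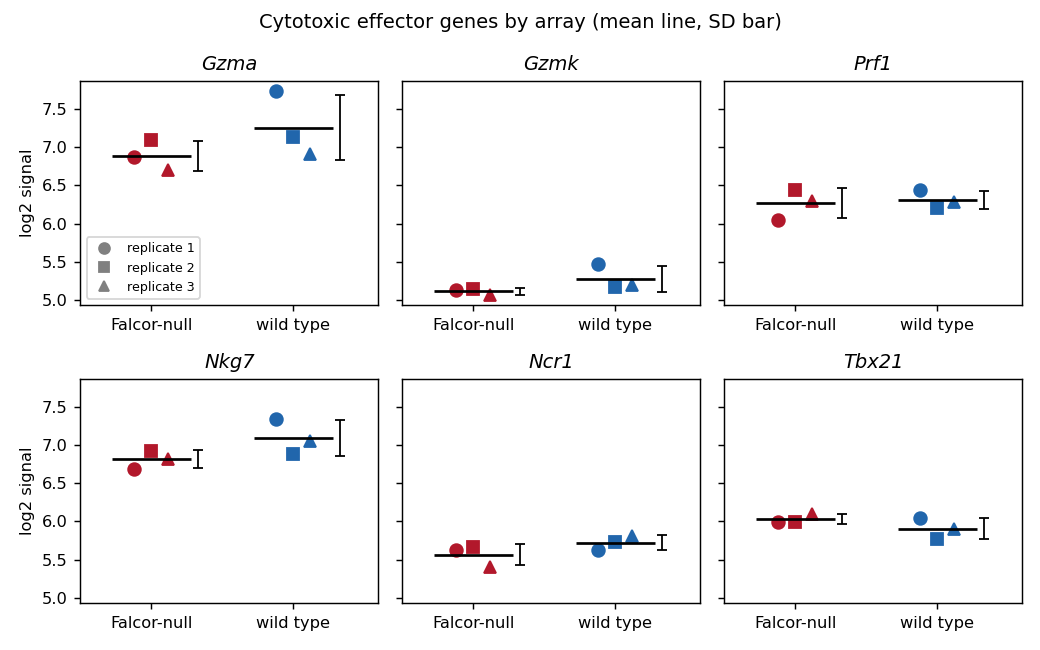
Log2 signal of the 6 measured effector genes on each array, Falcor-null at left and wild type at right in each panel. Symbols give the replicate, lines the group means and bars the SD (n = 3), and levels are not comparable between genes. Wild type replicate 1 is the highest wild-type array for every gene except Ncr1, and only Gzmk shows groups that do not overlap.

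The order of the arrays was similar for several of these genes within each group. Wild type replicate 1 was the highest wild-type array for 5 of the 6 measured effector genes, against 38.0% of all genes, and the highest of all 6 arrays for Gzma, Gzmk and Nkg7. Falcor-null replicate 2 was the highest of its group for 5 of the 6, all but Tbx21, against 36.4% of all genes. This order was not general among the lymphocyte lists described below. Wild type replicate 1 was the highest wild-type array for 4 of 9 measured NK receptors, 3 of 9 chemokines and migration receptors and 3 of 12 T cell markers, of which 8 were highest on wild type replicate 3. Falcor-null replicate 2 was the highest of its group for 6 of 9 NK receptors, 4 of 9 chemokines and migration receptors and 0 of 12 T cell markers, of which 10 were highest on Falcor-null replicate 3. The values of 3 genes that did have their highest signal on wild type replicate 1 follow, picked after they were seen. Ccl5, a chemokine that effector T cells and NK cells secrete, read 8.05, 8.14 and 8.02 on the arrays labelled Falcor-null and 9.58, 8.37 and 8.82 on the wild-type arrays. Klrd1, the CD94 chain of NK receptors, read 6.45, 6.82 and 6.29 on the arrays labelled Falcor-null and 7.01, 6.60 and 6.66 on the wild-type arrays. Cd8a, a chain of the coreceptor of cytotoxic T cells, read 5.48, 5.24 and 5.68 on the arrays labelled Falcor-null and 6.40, 5.38 and 5.88 on the wild-type arrays. For Ccl5 and Klrd1, but not for Cd8a, Falcor-null replicate 2 was the highest of its group.

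Leaving out each array in turn left all 6 genes without a call. The range of the difference over these fits was -0.55 to -0.13 for Gzma, -0.22 to -0.064 for Gzmk, -0.39 to -0.15 for Nkg7 and -0.21 to -0.077 for Ncr1. For Gzma, Gzmk and Nkg7 the difference nearest to 0 was the one without wild type replicate 1. Tbx21 kept a positive difference throughout, from 0.051 to 0.19, and its largest value was the one without that array.

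**Figure D3:**
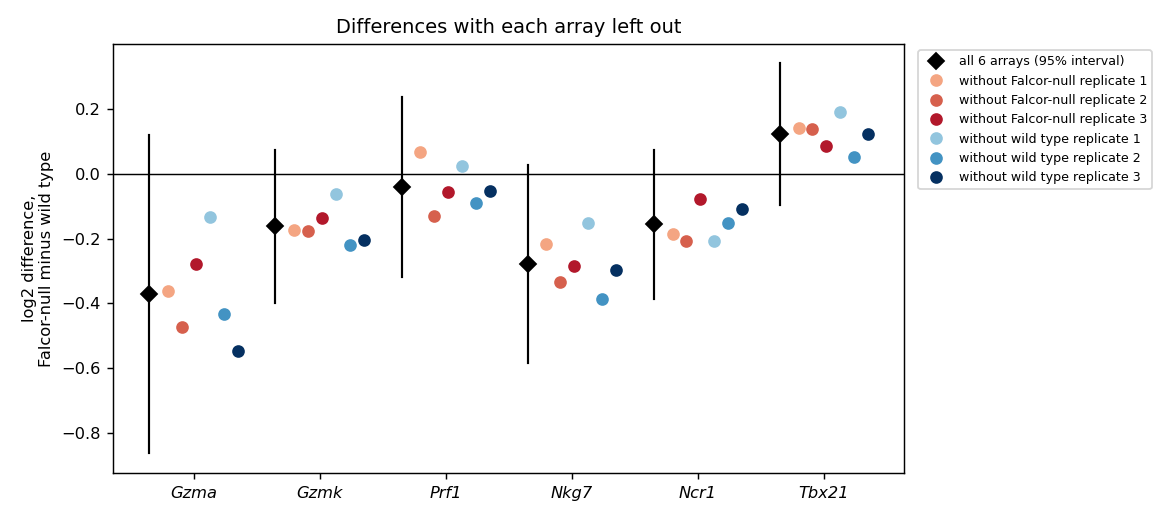
Log2 difference, Falcor-null minus wild type, of each measured effector gene with all 6 arrays (diamonds with 95% intervals) and with each array left out in turn (circles). With all 6 arrays the intervals of all 6 genes cover 0. Without wild type replicate 1 the differences of Gzma, Gzmk and Nkg7 are -0.13, -0.064 and -0.15.

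The rest of the killing machinery was described from gene lists for the same cells. Counts in all lists from here on stand beside the shares over all genes. Of all genes, 0.556% passed, 13.8% had an unadjusted p under 0.05 and 49.2% had a difference below 0. Among the other granzymes only Gzmm, granzyme M of NK cells, was measured of 7. It read 5.58, 5.52 and 5.48 on the arrays labelled Falcor-null and 5.58, 5.61 and 5.73 on the wild-type arrays (difference -0.11, adjusted p 0.584). All 10 genes of granule maturation and release were measured, 8 with lower and 2 with higher means, and none passed in limma, while 2 had an unadjusted p under 0.05. Their median difference was -0.14, against 0.0026 over all genes. Ctsc, the cathepsin that activates granzymes by trimming them and that myeloid cells also make, had the smallest p of the list. It read 10.6, 10.8 and 10.6 on the arrays labelled Falcor-null and 10.9, 11.2 and 11.1 on the wild-type arrays (difference -0.35, SE 0.096, adjusted p 0.176). Lyst, a regulator of lysosome-related granules, differed by -0.23 (adjusted p 0.305), and so did Stxbp2, which is needed for granule fusion (adjusted p 0.366). Death ligands, the second route of killing, had 0 of 3 passing and none with an unadjusted p under 0.05. Fas, the receptor, differed by -0.22 (adjusted p 0.589), its ligand Fasl by 0.12 (adjusted p 0.756) and Tnfsf10, the ligand TRAIL, by 0.11 (adjusted p 0.825). The Fasl signal was very dim, with a mean of 4.65 at percentile 4.19 of all genes tested.

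Receptors of NK cells and cytotoxic T cells did not pass either. Of 14 listed, 9 were measured, 6 with lower and 3 with higher means, a median difference of -0.27 and no call in limma, while 3 had an unadjusted p under 0.05. Of the 3 with higher means, Klrc1 and Crtam were dim, at percentiles 3.73 and 7.08 of all genes tested, and Itga2 was at 82.7. Of the 6 with lower means, the dimmest was Klrk1 at percentile 14.9. Slamf7, a receptor that NK cells share with plasma cells and other leukocytes, had the largest difference. It read 7.07, 6.99 and 7.10 on the arrays labelled Falcor-null and 8.23, 8.50 and 7.60 on the wild-type arrays, without overlap (difference -1.05, SE 0.21, adjusted p 0.0880). Klrg1, an inhibitory receptor of late effector cells and some innate lymphocytes, differed by -0.48 (adjusted p 0.180), and the activating receptor Cd226 by -0.45 (adjusted p 0.259). The adaptors downstream had 6 of 8 measured, all 6 with lower means, a median of -0.51, no call and 4 with an unadjusted p under 0.05. Sh2d1a, the adaptor SAP of T and NK cells, differed by -0.54 (adjusted p 0.111), whereas Fcer1g at -0.63 (adjusted p 0.208) and Tyrobp at -0.71 (adjusted p 0.253) are also signalling chains of macrophages, monocytes and neutrophils. The macrophage list had lower means for 6 of 6 measured genes, none passing and 3 with an unadjusted p under 0.05. Its list means were 8.07 to 8.78 on the arrays labelled Falcor-null and 8.63 to 9.30 on the wild-type arrays. Chil3 had the smallest p of that list (difference -1.12, adjusted p 0.0748). Neutrophil markers had lower means for 6 of 6, none passing and 3 with an unadjusted p under 0.05. Their list means were 6.55 to 6.90 on the arrays labelled Falcor-null and 7.30 to 8.75 on the wild-type arrays. Mmp8 had the smallest p among them (difference -1.58, adjusted p 0.175). The part of these cells in the adaptor differences was not tested.

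Cytokines that drive the effector programme and their receptors gave no call. Of 13 listed genes 11 were measured, 9 with lower and 2 with higher means, with a median of -0.31, and 7 had an unadjusted p under 0.05. Il2rb, the receptor chain for interleukins 2 and 15 on which NK cells depend, read 6.07, 6.47 and 6.27 on the arrays labelled Falcor-null and 6.86, 6.79 and 6.94 on the wild-type arrays. These groups did not overlap, and the difference of -0.60 (SE 0.11) had an adjusted p of 0.0817. Il12rb2, the inducible chain of the interleukin 12 receptor, read 5.0, 5.13 and 5.14 on the arrays labelled Falcor-null and 5.92, 6.77 and 5.70 on the wild-type arrays. It did not overlap either (difference -1.04, SE 0.25, adjusted p 0.133), with wild type replicate 2 the highest array. Il15ra, which presents interleukin 15 to NK cells, differed by -0.31 (adjusted p 0.190). Among the other transcription factors 8 of 11 were measured, 7 with lower and 1 with higher means, and none passed, while 2 had an unadjusted p under 0.05. Tox, which takes part in T cell and innate lymphocyte development, differed by -0.57 (adjusted p 0.115), Id2, required for NK cells and also expressed in other lung cells, by -0.33 (adjusted p 0.233) and Ets1 by 0.20 (adjusted p 0.369). Runx3, named here for the Runx cores in the promoters, differed by -0.17 (adjusted p 0.434).

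Ifng was not measured. Its receptor and genes that it can induce were read instead, and their values do not measure Ifng itself. The part of interferon gamma in them was not tested. Of 22 listed 20 were measured, 15 with lower and 5 with higher means, with a median of -0.12, and 1 passed. An unadjusted p under 0.05 was found for 3 with lower means and 1 with a higher mean. Cxcl9, a chemokine that draws T and NK cells through Cxcr3, read 5.27, 4.80 and 5.14 on the arrays labelled Falcor-null and 7.08, 6.58 and 6.25 on the wild-type arrays. It fell by 1.57 on the log2 scale (SE 0.22), 2.96-fold lower on the arrays labelled Falcor-null, with an adjusted p of 0.0341. The Cxcl9 call held without wild type replicate 1 or 3 and was lost without Falcor-null replicate 1 (adjusted p 0.0850), 2 (0.110) or 3 (0.0846) or wild type replicate 2 (0.109). The others with an unadjusted p under 0.05 were Irf8 at -0.30 (adjusted p 0.198), Cd274 at -0.53 (adjusted p 0.236) and Nos2 at 0.31 (adjusted p 0.339). The other chemokine of the receptor Cxcr3 in the list, Cxcl10, differed by 0.052 (adjusted p 0.932), and the guanylate-binding protein gene Gbp5 by -0.16 (adjusted p 0.726). All of these but Cxcl9 were named after their values were seen. Chemokines and migration receptors of effector lymphocytes had 9 of 10 measured, 8 with lower means and 1 with a mean higher by less than a hundredth, none passing and 2 with an unadjusted p under 0.05. Cxcr6, a homing receptor of tissue-resident lymphocytes, differed by -0.68 (adjusted p 0.155), Ccl5 by -0.85 (adjusted p 0.226) and Cx3cr1, also a receptor of monocytes, by -0.29 (adjusted p 0.446).

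**Figure D4:**
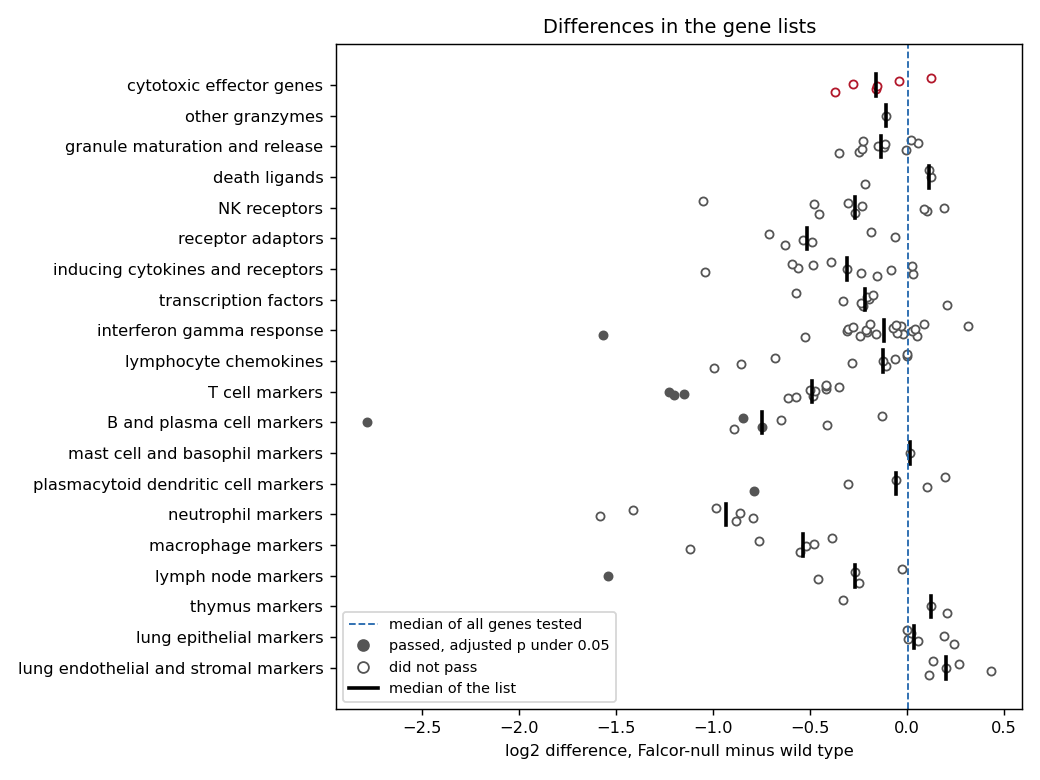
Log2 difference, Falcor-null minus wild type, of every measured gene of the effector genes (top row) and of the other lists, with filled circles for genes that passed an adjusted p of 0.05 in limma. Black ticks are list medians and the dashed line is the median of all genes. The effector genes lie between -0.37 and 0.12, and the filled circles stand among the interferon gamma response, T cell, B and plasma cell, plasmacytoid dendritic cell and lymph node lists.

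Markers of T cells as a whole were all measured, and all 12 had lower means on the arrays labelled Falcor-null. Their median difference was -0.49, against -0.16 for the 6 effector genes, while 10 had an unadjusted p under 0.05 and 3 passed. Cd3e, a chain of the T cell receptor complex, read 7.31, 7.43 and 7.55 on the arrays labelled Falcor-null and 8.68, 8.46 and 8.76 on the wild-type arrays (difference -1.20, 95% interval -1.45 to -0.95, adjusted p 0.00949). Cd4, the coreceptor of helper T cells, had a difference of -1.23 (95% interval -1.51 to -0.94, adjusted p 0.0131) and Cd3g one of -1.15 (95% interval -1.51 to -0.79, adjusted p 0.0324). Cd3e lost its call without Falcor-null replicate 2 (adjusted p 0.0529), Cd4 without Falcor-null replicate 2 (0.0687) or wild type replicate 2 (0.0546), and Cd3g without any 1 array (0.0518 to 0.0989). The coreceptor chains of cytotoxic T cells, named after their values were seen, had differences of -0.42 for Cd8a (95% interval -0.99 to 0.16, adjusted p 0.510) and -0.35 for Cd8b1 (95% interval -0.61 to -0.099, adjusted p 0.219). A test of 1 gene's difference against another's was not made. The mean of the T cell list lay between 6.15 and 6.40 on the arrays labelled Falcor-null and between 6.72 and 7.0 on the wild-type arrays, without overlap. For the effector genes that mean lay between 6.06 and 6.21 on the arrays labelled Falcor-null and between 6.15 and 6.44 on the wild-type arrays, with overlap.

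**Figure D5:**
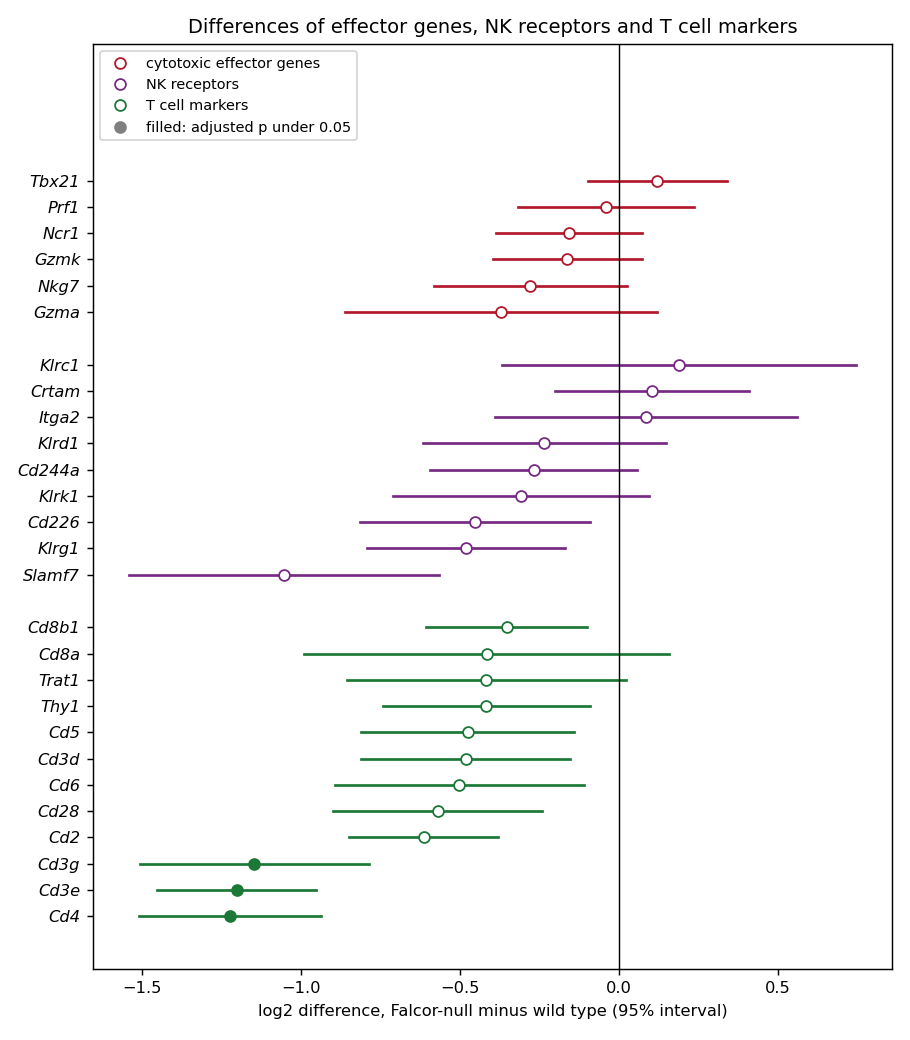
Log2 difference, Falcor-null minus wild type, with its 95% interval from limma for the measured effector genes (top), NK receptors (middle) and T cell markers (bottom). Filled circles passed an adjusted p of 0.05. Intervals of the 6 effector genes all cover 0, and those of Cd3e, Cd4 and Cd3g end at -0.95, -0.94 and -0.79.

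Markers of other cells that could hold these transcripts or come with lymphocytes were read beside them. In the B and plasma cell list 7 of 8 were measured, all with lower means, and 6 had an unadjusted p under 0.05. Of these 3 passed: Jchain (-2.78, adjusted p 0.000311), Mzb1 (-0.85, adjusted p 0.0147) and Cd79a (-0.75, adjusted p 0.0282). Jchain held its call with any array left out, whereas Mzb1 lost it without Falcor-null replicate 1 (adjusted p 0.0523) or 2 (0.0642) or wild type replicate 2 (0.0619), and Cd79a held it only without wild type replicate 3 (adjusted p up to 0.101 with another array left out). Plasmacytoid dendritic cell genes had 5 of 6 measured, 3 lower and 2 higher, and 1 had an unadjusted p under 0.05. This was Bst2, the 1 to pass (-0.79, adjusted p 0.0180). That call was lost without any Falcor-null array (adjusted p 0.0541 to 0.0709) or without wild type replicate 2 (0.0676). The rest of that list, named after its values were seen, was Siglech (-0.056, adjusted p 0.940), Ly6d (-0.30, 0.607), Irf7 (0.10, 0.614) and Tcf4 (0.19, 0.397). Bst2 alone does not stand for these cells. In the lymph node list 5 of 7 were measured, all lower, and 3 had an unadjusted p under 0.05. Cxcl13, the chemokine of B cell follicles, passed (-1.54, adjusted p 0.0147), losing its call without Falcor-null replicate 1 (0.0513) or 2 (0.0687). The rest of that list, named after its values were seen, was dim, with the percentile of the mean among all genes tested given last. It was Cr2 (-0.46, adjusted p 0.237, percentile 8.93), Glycam1 (-0.27, 0.350, 7.22), Chst4 (-0.25, 0.792, 19.0) and Madcam1 (-0.029, 0.934, 13.2). Cxcl13 alone does not stand for lymph node tissue. The means of the list, Cxcl13 included, were 5.47 to 5.64 on the arrays labelled Falcor-null and 5.91 to 6.17 on the wild-type arrays. The thymus list had 3 of 6 measured, 1 with an unadjusted p under 0.05, and the mast cell and basophil list 1 of 8. None of them passed, and the granule proteases of mast cells give no view here. Endothelial and stromal markers had higher means for 5 of 5, none passing and 2 with an unadjusted p under 0.05, with Cldn5 at 0.43 (adjusted p 0.101). The part of these cells in the effector gene values was not tested.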

How the data were processed

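Whole-lung RNA was labelled with biotin after amplification by in vitro transcription, per the labels. The authors deposited 1 log2 signal per probe set and array. Tools listed in the submitters' processing notes are oligo, RMA and limma, with no version. RMA makes array distributions alike, so a shift of most genes one way would be removed. The deposited values still differed between the groups at the low end. The lowest signal of an array was 2.09 to 2.42 on those labelled Falcor-null and 3.19 to 3.22 on the wild-type arrays. What this does to dim genes was not tested. No detection calls were used, so signal over background is unknown.

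Probe sets with exactly 1 symbol in the platform annotation were used (17476, against 1308 with several and 5389 with none). The probe set with the highest mean stood for each of the 740 genes with several, leaving 16537 genes. The groups were compared in limma 3.58.1 (lmFit and eBayes, R 4.3.3), two-sided, with Benjamini-Hochberg adjustment over all genes and a threshold of 0.05. The design had 3 arrays against 3, for which 0.1 is the smallest exact permutation p. Differences are Falcor-null minus wild type on the log2 scale, and 95% intervals come from the same fit. The code of the test was run on simulated independent normal values with added differences larger than those of the effector genes. That run does not show the power for differences of their size.

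The members and the 19 other lists were chosen with earlier results of these data known. Named genes were all measured members, Falcor, and of each list every gene that passed or, with none, up to 3 with the smallest p, and others are said to be chosen after their values were seen. Cd244 was read under its RefSeq symbol Cd244a. Plots used matplotlib 3.10.9 (Python 3.11.15).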

Additional observations from a re-analysis of the deposited data

How the results depend on the processing

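No effector gene passed in the 16 alternatives run, which were the replicate block, median centring of arrays, repeated quantile normalization, an eBayes intensity trend, robust variance, array weights, leaving out dim genes, averaging probe sets, testing every probe set, a threshold of 0.1 and leaving out each of the 6 arrays. Gzmk and Ncr1 fell below the dim-gene filter (30th percentile) and had no value there. Only Prf1 changed sign, with a difference of 0.066 without Falcor-null replicate 1 and of 0.025 without wild type replicate 1, in a range of -0.13 to 0.066 over the arrays left out. The number of all genes passing was 92, against 18 to 89 with 1 array left out, 32 with the replicate block and 280 at a threshold of 0.1. Of the other lists 9 genes passed, against 1 to 9 with 1 array left out, 5 with the replicate block and 14 at a threshold of 0.1, an alternative chosen after seeing the data. These counts can include list genes outside the 9. With the replicate block Cd3e, Cd4, Jchain and Cxcl13 kept their call and a list gene not called in the main fit was added. Same-numbered arrays did not deviate together (correlations of deviations 0.028, 0.0083 and -0.073), so the numbers were not taken to pair the samples. With the replicate block the adjusted p was over 0.05 for Falcor (0.119), Cxcl9 (0.0515), Cd3g (0.106), Mzb1 (0.0671), Cd79a (0.0925) and Bst2 (0.0791), and stayed under it for Cd3e, Cd4, Jchain and Cxcl13 (0.0179 to 0.0373). With 3 arrays a group, the 95% intervals of the 6 genes leave room for changes of up to 0.86 on the log2 scale, and signal near background can hide more.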
